A study of Arabidopsis thaliana with 4 samples.

Results

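*ATAF1* (*AT1G01720*), *ASG4* (*AT1G01520*), *ERF10* (*AT1G03800*) and *NAC004* (*AT1G02230*) are 4 genes of chromosome 1 that encode transcription factors and that had AtbZIP17 peaks assigned by the study to their upstream sequences. Their peaks were found by joining the deposited peak lists, by peak name, to the lines of the study's supplemental table of target genes that name these loci. They are 4 of the 842 target genes named in the 1389 lines of that table used here, and the other 1240 lines were not used here. The members were chosen by these same peaks, that is by a peak of each replicate that passed the MACS limit and was listed for the gene, so that pileup, fold enrichment, width and position of the peaks are given as a description and without a test.

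The peaks come from *Arabidopsis* Col-0 seedlings carrying 35Spro::MYC-bZIP17, which expresses AtbZIP17 with a MYC tag from a viral promoter active in most tissues. The seedlings were 13 days old, had grown at 22 °C and were kept at 42 °C for 2 h before anti-MYC ChIP of whole seedlings. There were 3 ChIP samples, called replicates 1, 2 and 3, and 1 input library of the same plants and heat treatment, taken without antibody. ChIP-seq of unheated or untagged plants was not analysed here, so that all values belong to a single condition, a constitutively expressed transgene after heat. The labels do not say whether the replicates were separate cultures, and an SD over them may be technical.

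AtbZIP17 is a basic leucine zipper factor held in the ER membrane. Under stress it moves to the Golgi, where proteases release its cytosolic part, which then enters the nucleus and binds promoters, among them those of genes of the unfolded protein response (UPR). The members belong to 3 plant families of DNA-binding proteins. NAC factors share an N-terminal NAC domain, and many of them are induced by drought, salt, ABA or ageing. *ATAF1* is among the best known of these stress-induced NAC genes and has been linked to ABA synthesis and leaf senescence, while *NAC004* is a little studied member of the same family. *ASG4* encodes a MYB-related protein of the REVEILLE type, related to the clock factors CCA1 and LHY, and was named for a seed germination phenotype. *ERF10* belongs to the AP2/ERF family, in a branch whose proteins carry the EAR repression motif and act as repressors of transcription.

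There were 14 peaks joined to these genes, 6 in replicate 1, 4 in replicate 2 and 4 in replicate 3, out of 4523, 4491 and 4330 peaks in the lists. The pileup of a peak is the number of fragments stacked at its summit. The fold enrichment is the ratio that MACS reported for this pileup against a local background derived from the input. The read totals behind the lists are unknown, so no counting interval is given, and values are placed within their own list. The median pileup of a list was 35 fragments in replicates 1 and 2 and 34 in replicate 3. Positions are those of the deposited lists, for which the submitters' processing notes name the build TAIR10. No gene coordinates of that build were used here, so the upstream assignment was not checked, and whether a summit lies before a gene or within it was not analysed here.

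The highest peak was that of *ATAF1*. Its pileup was 188, 211 and 170 fragments in replicates 1, 2 and 3, and the mean was 190 ± 20.6 (SD, n = 3). These values were 5.37, 6.03 and 5 times the median of their list. Within the lists they ranked 79, 80 and 106 by pileup, above 98.3%, 98.2% and 97.5% of the peaks. The fold enrichment was 9.29, 10.8 and 8.91, a mean of 9.66 ± 0.987 (SD, n = 3), with a −log10 *q* value of 111, 138 and 98.0. *ATAF1* thus stood in the upper part of the target genes too, as 91.8% of the 842 genes had a lower mean pileup and 90.9% a lower mean fold enrichment.

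*ASG4* followed with a pileup of 87, 107 and 121 fragments in the 3 replicates and a mean of 105 ± 17.1 (SD, n = 3). Replicate 1 was the lowest at *ASG4*, *ERF10* and *NAC004* and replicate 2 the highest at *ATAF1*, *ERF10* and *NAC004*, while replicate 3 was the highest at *ASG4* and the lowest at *ATAF1*. The fold enrichment was 4.16, 5.32 and 6.12, a mean of 5.20 ± 0.986 (SD, n = 3). The peaks ranked 286, 247 and 197 by pileup, and the −log10 *q* value was 25.3, 40.5 and 52.2. Its pileup varied more between replicates than that of the other members, with a coefficient of variation of 16.3%, above that of 85.1% of the 760 target genes whose strongest peaks overlap in the 3 replicates. The median coefficient of these genes was 10.01%.

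*ERF10* had a pileup of 56, 62 and 57 fragments in replicates 1, 2 and 3, a mean of 58.3 ± 3.21 (SD, n = 3), and this gene varied the least, with a coefficient of variation of 5.51%. It lay in the middle of the target genes, whose median mean pileup was 58.2 fragments. The fold enrichment was 2.98, 3.89 and 3.45, a mean of 3.44 ± 0.457 (SD, n = 3), against a median of 3.34 over the target genes. In the lists, the peak ranked 570, 551 and 578 by pileup. Its −log10 *q* value was 10.1, 16.7 and 12.9.

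The lowest of the 4 genes was *NAC004*. The pileup of its strongest peak was 40, 50 and 44 fragments in the 3 replicates and 44.7 ± 5.03 on average (SD, n = 3), and 28.6% of the target genes had a lower mean. The fold enrichment was 2.19, 3.03 and 2.98, a mean of 2.73 ± 0.472 (SD, n = 3). In replicate 1 the peak was close to the bulk of the list, at 1.14 times its median pileup, with a rank of 1211 by pileup and 2330 by fold enrichment. The −log10 *q* value was 3.65 there, against 9.25 and 7.91 in replicates 2 and 3. The local background, approximated as pileup divided by fold enrichment, was also highest in replicate 1, with 18.3 fragments against 16.5 and 14.7. Its part in the low fold enrichment was not tested.

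**Figure D1:**
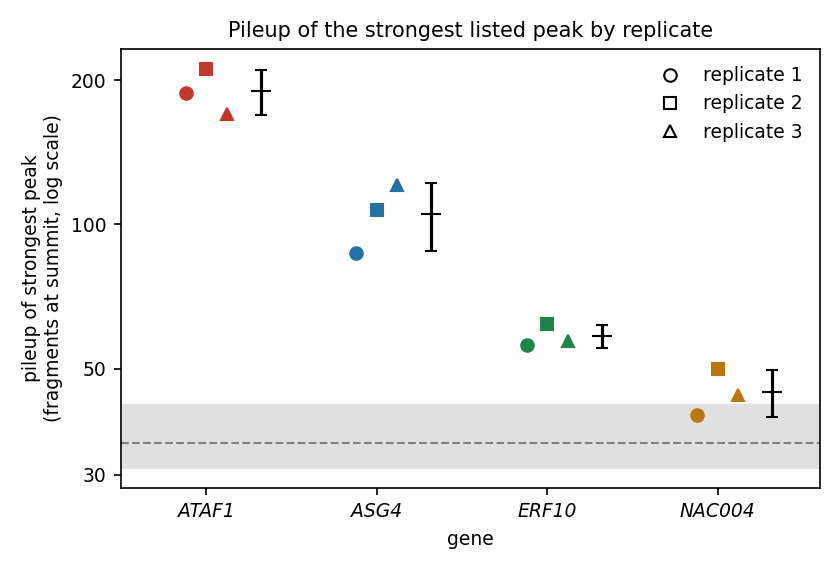
Pileup of the strongest listed peak (fragments at the summit, log axis) at each gene in the 3 replicates, with the mean and SD (n = 3) as a bar at the right of the points. The dashed line is the median pileup of 35 fragments and the grey band spans the quartiles of the lists, from 31 to 42 fragments. *ATAF1*, *ASG4* and *ERF10* lie above the band in every replicate, and *NAC004* falls inside it in replicate 1.

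By pileup, the order *ATAF1*, *ASG4*, *ERF10* and *NAC004* was the same in each replicate, and the values of neighbours in this order did not overlap. The mean of *ATAF1* was 1.81 times that of *ASG4*, the mean of *ASG4* was 1.80 times that of *ERF10*, and the mean of *ERF10* was 1.31 times that of *NAC004*. The mean of *ATAF1* was 4.25 times that of *NAC004*. By fold enrichment, *ERF10* and *NAC004* overlapped, since the 2.98 of *ERF10* in replicate 1 was under the 3.03 of *NAC004* in replicate 2. Within each replicate, however, *ERF10* had the higher fold enrichment, so the overlap arises only across replicates. The local background under the strongest peaks differed less than the pileup, with 19.6 ± 0.575 fragments at *ATAF1*, 20.3 ± 0.586 at *ASG4*, 17.1 ± 1.51 at *ERF10* and 16.5 ± 1.76 at *NAC004* (SD, n = 3).

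Peaks of the 3 replicates that overlapped one another by at least 1 bp were found at all 4 genes, as at 93.6% of the target genes. A reciprocal overlap of 50% was also met by all 4, against 59.1% of the target genes, but *ASG4* met it narrowly, as its strongest peaks of replicates 1 and 2 shared 50.1% of the wider peak. With a *q* value under 1e-05 in each of the overlapping peaks, 3 of the 4 genes were left, *NAC004* being lost through replicate 1, against 65.3% of the target genes. A limit of 3 on the fold enrichment of every peak was met by *ATAF1* and *ASG4*, 2 of the 4 genes, against 47.1%. *ERF10* missed this limit only in replicate 1, with 2.98, and *NAC004* in replicates 1 and 3. When the summits of the 3 peaks had to lie within 200 bp, *ATAF1* and *ASG4* remained, 2 of the 4 genes, against 76.2% of the target genes.

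The genes also differed in how closely the summits of the replicates coincided. At *ATAF1*, the summits of replicates 1, 2 and 3 lay at 268219, 268221 and 268215 on chromosome 1, within 6 bp. The peaks ran from 266993 to 269275, from 266795 to 269143 and from 267130 to 269226. The 3 peaks had 2014 bp in common, which is 81.2% of the stretch they cover together. Of the 760 target genes with overlapping strongest peaks, 0.921% had summits closer together. Over these genes, the outermost summits were 74 bp apart in the median. Among the 26 of them with a mean pileup within 10% of that of *ATAF1*, the median was 46 bp and 1 gene had closer summits.

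*ERF10* was the opposite case. Its summits were at 958057, 957083 and 957662 in replicates 1, 2 and 3, so that the outermost were 974 bp apart. Nevertheless, the peaks themselves coincided, from 956607 to 958471, from 956497 to 958957 and from 956810 to 958639, with 1662 bp in common. The peak of replicate 1 lay wholly within that of replicate 2, as did the peak of replicate 3. Summits closer together were found at 97.6% of the 760 genes, and at 103 of the 105 genes with a mean pileup within 10% of that of *ERF10*, whose median was 77 bp. The peaks at *ERF10* thus coincided as a wide stretch and not as a point.

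At *ASG4*, the strongest peaks had their summits at 190332, 190389 and 190386 in replicates 1, 2 and 3, within 57 bp. The summits of replicates 2 and 3 were 3 bp apart. At *NAC004*, they were at 436904, 436991 and 436739, within 252 bp. The median distance at target genes of like pileup was 53 bp for *ASG4* (51 genes) and 131 bp for *NAC004* (173 genes), so *ASG4* was near the middle and 71.7% of the genes like *NAC004* had closer summits.

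**Figure D2:**
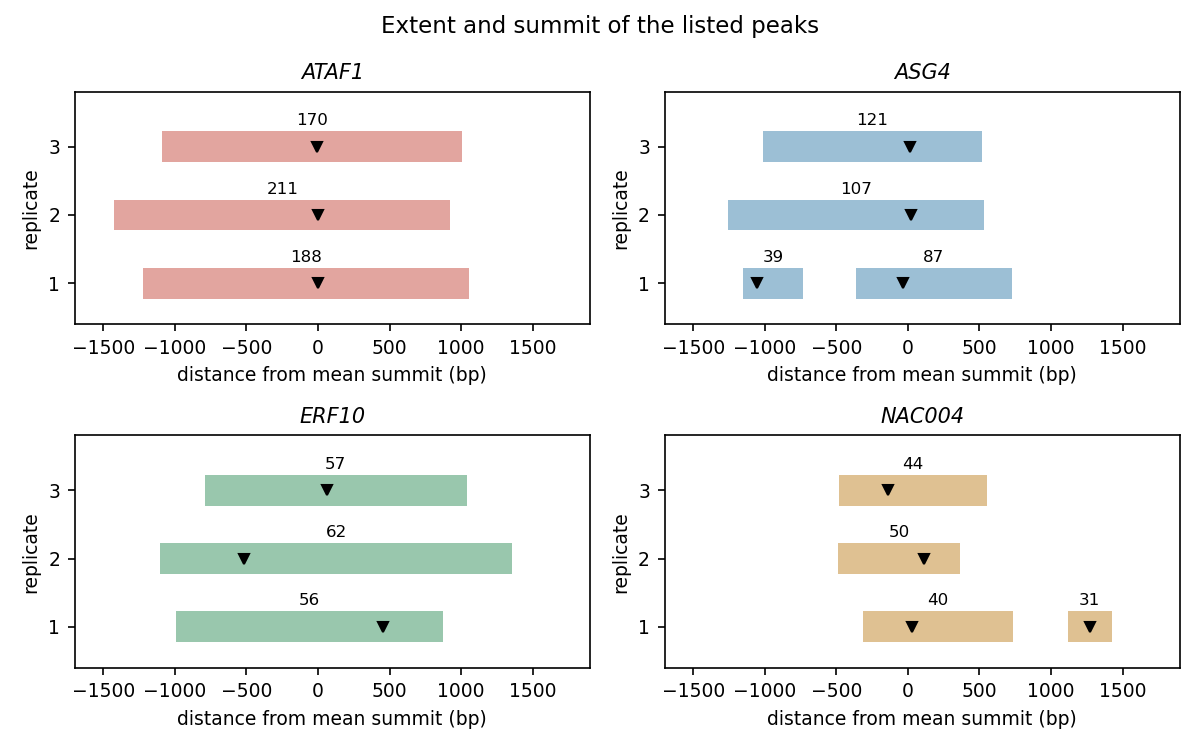
Extent (bars) and summit (triangles) of every listed peak of the 4 genes in the 3 replicates, as the distance in bp from the mean of the summits of the strongest peaks, with the pileup in fragments above each bar. The summits align within 6 bp at *ATAF1* and are spread over 974 bp inside overlapping wide peaks at *ERF10*, and replicate 1 has a further peak at *ASG4* and at *NAC004*.

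**Figure D3:**
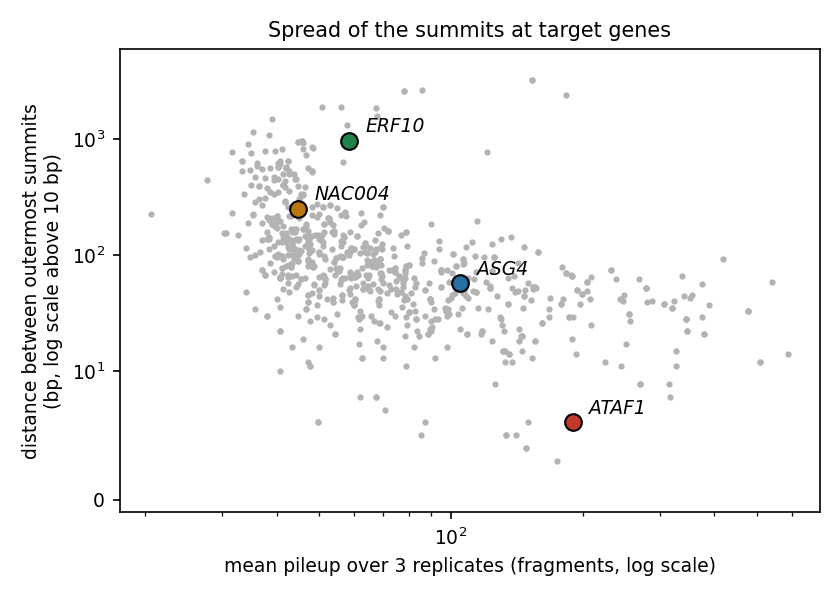
Distance between the outermost summits of the 3 replicates (bp, log scale above 10 bp) against the mean pileup (fragments, log axis) at the 760 target genes whose strongest peaks overlap (grey points), with the 4 genes in colour. *ATAF1* is near the lower edge at 6 bp, *ERF10* near the upper edge at 974 bp.

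The width of the peaks followed their height only in part, since *ERF10* had wider peaks than *ASG4* with a lower pileup. At *ATAF1* the peaks were 2283, 2349 and 2097 bp wide in replicates 1, 2 and 3, and at *ERF10*, with less than a 3-fold enrichment in replicate 1, they were 1865, 2461 and 1830 bp wide. The strongest peaks of *ASG4* were 1091, 1787 and 1525 bp wide. Those of *NAC004* were 1048, 854 and 1030 bp wide. To set the width against the height, each peak was compared with the peaks of its own list that had a pileup within 10% of its own. The peaks of *ERF10* were wider than 91.6%, 97.4% and 96.7% of such peaks, whose median width was 1023, 998 and 903 bp. The peaks of *ATAF1*, in contrast, were wider than only 28.6%, 19.2% and 32.4%, with a median of 2986, 2961 and 2240 bp. *NAC004* was also wide for its height, above 92.5%, 64.3% and 86.2% of like peaks, and *ASG4* was below the middle, above 15.7%, 45.2% and 18.4%. All 3 peaks of *ATAF1* and the peak of *ERF10* in replicate 2 were wider than the upstream 2 K in which the paper's methods place the binding, and must therefore reach beyond that stretch.

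**Figure D4:**
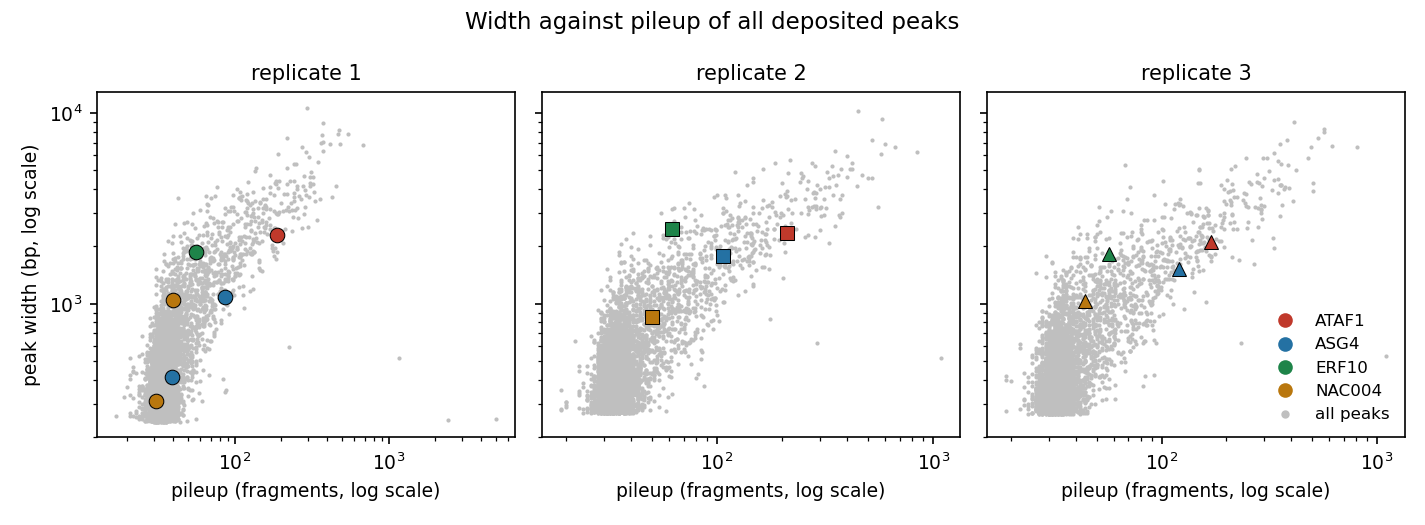
Width (bp, log axis) against pileup (fragments, log axis) of all 4523, 4491 and 4330 peaks of replicates 1, 2 and 3 (grey points), with the listed peaks of the 4 genes in colour. *ERF10* lies near the upper edge of the cloud for its pileup, and *ATAF1* and the strongest peaks of *ASG4* lie below the middle.

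*ATAF1* and *ERF10* had a single peak in each replicate, as did 65.7% of the target genes. *ASG4* and *NAC004* each had 2 peaks in replicate 1 and 1 peak in the others, a pattern seen at 96 target genes (11.4%), while 57 and 53 target genes had their second peak in replicate 2 or replicate 3 only. The second peaks of these genes were of different kinds. At *ASG4*, the weaker peak of replicate 1 ran from 189220 to 189633, with its summit at 189318, a pileup of 39 fragments, a fold enrichment of 2.32 and a −log10 *q* value of 4.13. A gap of 372 bp separated it from the stronger peak, which ran from 190006 to 191096. The single peaks of replicate 2 (189115 to 190901) and replicate 3 (189359 to 190883) bridged this gap and overlapped the weaker peak by 414 and 275 bp. The summit of the weaker peak was inside the peak of replicate 2 and outside that of replicate 3, which began 41 bp further on.

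At *NAC004*, the second peak of replicate 1 had no counterpart. It ran from 437996 to 438303, 381 bp beyond the end of the stronger peak, with its summit at 438150, 1246 bp from the stronger summit. Its pileup of 31 fragments was under the median of the list, with a fold enrichment of 1.91, and 14.1% of the peaks of replicate 1 had a lower pileup. Neither of the peaks of replicates 2 and 3 (436391 to 437244 and 436400 to 437429) overlapped it. Of the 2 lines of the target table for *NAC004*, 1 contains this peak, so that it joins peaks that do not overlap.

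The 4 genes are located close to one end of the list for chromosome 1, where *ASG4* comes first. In replicate 1, the summit of *ATAF1* was 77.9 kb from that of *ASG4*, that of *NAC004* a further 169 kb away and that of *ERF10* a further 521 kb, and the other replicates gave the same order with distances of 77.8, 169 and 520 to 521 kb. None of the 14 peaks was listed for another gene in the lines used. According to the gene order of the RefSeq table (assembly TAIR10.1, used for names and order only), 16 genes flank the members, 2 on either side of each, and none of them was a target gene in these lines. Among them, *SOM*, a CCCH zinc finger gene of seed germination, is next to *ERF10*, *AN* (*ANGUSTIFOLIA*), a gene of leaf cell shape, is next to *ASG4*, and *NAC005* is next to *NAC004*.

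The number of other peaks nearby differed between the members. Within 10 kb of its summit, *ATAF1* had no other peak in replicates 1 and 3 and 1 in replicate 2, with a pileup of 38 fragments at a distance of 2998 bp. *ERF10* had 0, 3 and 1 other peaks in replicates 1, 2 and 3, with a pileup from 29 to 36 fragments, and none of these was joined to a gene in the lines used. *NAC004* had 1 in each replicate, at different places, which in replicate 1 was its own second peak. *ASG4* had 5, 3 and 2, of which 1 in replicate 1 was its own second peak. They included a peak of each replicate 6850 to 6946 bp away on the side of lower coordinates, with a pileup of 54, 54 and 59 fragments, which was listed for *AT1G01490*, and a peak of each replicate 8718 to 9244 bp away on the other side, which was listed for *BPS1* (*AT1G01550*) and had a pileup of 37, 36 and 34 fragments. These peaks are separate from those of *ASG4*, with a gap of at least 5241 bp.

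None of the 4 genes was on the study's flower list, which holds 1380 genes whose induction by heat in flowers was seen in the WT and missed in the *bzip17* mutant. Of all target genes in the lines used, 57 (6.77%) were on it. Of the 16 flanking genes, 1 was on the list. This was *NAC003* (*AT1G02220*), on the side of *NAC004* with lower coordinates, and it was not a target gene in these lines. That list describes flowers and the peaks describe seedlings, so that a gene missing from it says nothing on its expression in seedlings.

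To compare the members within their families, the genes of each family were taken from the symbols and synonyms of the RefSeq table. Family genes that carry other names are missed, so the counts and ranks below cover only the genes so named. There were 8 target genes among 100 NAC genes (8.00%), 5 among 52 AP2/ERF genes (9.62%) and 1 among 8 MYB-related genes of the REVEILLE, CCA1 and LHY type (12.5%). Of all 27562 protein-coding genes in the table, 777 (2.82%) were target genes in the lines used. The members are included in these counts and were chosen as target genes, which raises each share. Without them, 6 NAC, 4 AP2/ERF and 0 MYB-related target genes remained. The counts would also change with the lines not used, so no test was run. All 14 target genes so named had overlapping strongest peaks in the 3 replicates, as had 760 of the 842 target genes. None of the 14 was on the flower list, against 6.77% of all target genes. That list held 5 NAC genes and 3 AP2/ERF genes so named.

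*ATAF1* had the highest pileup of the NAC genes. Its lowest pileup of 170 fragments was above the highest value of any of the other 7, which was 80. Next came *NAC089*, which encodes a membrane-bound NAC factor of the ER stress response, with 80, 80 and 55 fragments and a mean of 71.7 ± 14.4 (SD, n = 3). The same peaks were also listed for *AT5G22280* and *AT5G22300*, so they are not particular to *NAC089*. *NAC089* was followed by *XND1*, a gene of xylem development, with 61, 78 and 66 fragments and a mean of 68.3 ± 8.74 (SD, n = 3). The difference between these genes is smaller than either SD, and *NAC047* and *NAC076* lay close to them with a mean of 68.0 and 58.7. *NAC004* was the lowest of the 8 NAC genes. Its values of 40 to 50 fragments overlapped those of *NTL8*, a membrane-bound NAC factor, with 46 to 48, and of *NAC3* (*AT3G15500*), with 42 to 53, so these 3 genes were not separated beyond their spread. Like *NAC004*, the genes *NAC089*, *NTL8* and *NAC3* had 2 peaks in replicate 1 and 1 in the others, as had 11.4% of the target genes. Whether their second peaks had a counterpart in replicates 2 and 3 was not analysed here.

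Among the target genes named as AP2/ERF genes, *ERF12* had the highest pileup, with 141, 150 and 148 fragments in replicates 1, 2 and 3 and a mean of 146 ± 4.73 (SD, n = 3). Like *ERF10*, *ERF12* encodes a repressor with an EAR motif. Its summits lay within 35 bp, and its mean width of 2236 bp was close to the 2052 bp of *ERF10*, although its mean pileup was far above the 58.3 of *ERF10*. *CBF1*, a regulator of the cold response, had 77, 81 and 45 fragments, and *ERF-1* had 45, 47 and 64. *ERF4*, another repressor with an EAR motif, had 50, 45 and 46, under every value of *ERF10*. The same peaks were also listed for *AT3G15200*. The values of *ERF10* overlapped the range of *CBF1* and of *ERF-1* and were therefore not separated from either. Widely spaced summits also occurred at *CBF1*, with 1588 bp, and not at *ERF-1* (42 bp) or *ERF4* (150 bp). *ASG4* was the single target gene of its type in the lines used, so no comparison within its family was possible.

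**Figure D5:**
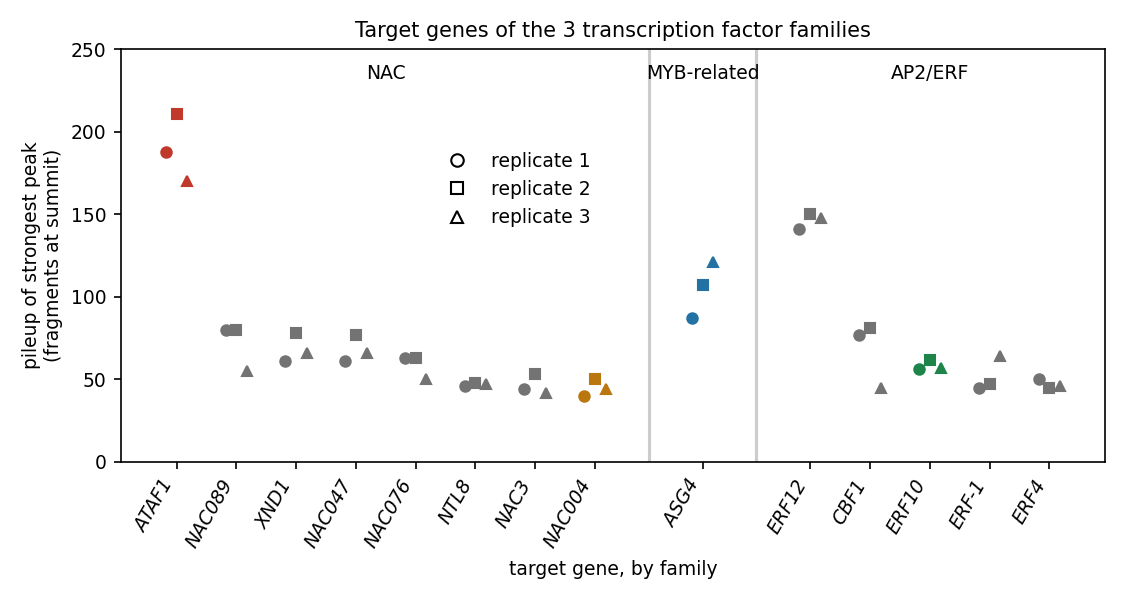
Pileup of the strongest listed peak (fragments at the summit) in each replicate at the 14 target genes named as NAC, MYB-related or AP2/ERF genes, ordered by mean within a family and with the 4 members in colour. *ATAF1* is above every other NAC gene in each replicate, *NAC004* is the lowest NAC gene by mean, and *ERF10* comes after *ERF12* and *CBF1* among the 5 AP2/ERF genes.

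For each member, the 2 other target genes were sought whose pileup was most like its own, by the Euclidean distance of log2 pileup over the 3 replicates. *JRG21*, a jasmonate-regulated gene with 185, 201 and 178 fragments, and *PRR7*, a clock gene with 181, 202 and 185, were nearest to *ATAF1*, at distances of 0.10 and 0.15 on the log2 scale. *AT1G55340* (92, 98 and 112 fragments) and *AT3G14820* (89, 121 and 114 fragments) were nearest to *ASG4*, at 0.19 and 0.20. *ERF10* was matched by *AT1G78040* and *PGM* (*AT1G78050*), both at 0.05 with 56, 64 and 57 fragments, because the same peaks were listed for both genes. *EXO* (40, 52 and 43 fragments) and *AT3G21781* (39, 48 and 44 fragments) were nearest to *NAC004*, both at 0.07. With 3 values per gene, likeness in this measure is mainly likeness in level. *PRR7* and *PGM* were on the flower list.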

How the data were processed

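The authors used Skewer for trimming, left out reads under 50 bp, mapped uniquely with Bowtie, removed duplicates and called peaks with MACS in every ChIP sample on its own against the input (*P* value limit 0.001). The submitters' processing notes name TAIR10. Pileup is a signal that the authors deposited as MACS wrote it, the fold enrichment is a linear ratio from the same deposited lists, and the −log10 of p-values and q-values in them are also the authors' values. A region without a listed peak can be just under the limit, and depth per sample is unknown.

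Only peak names and loci were taken from the supplemental table of target genes. A gene's value in a replicate is that of its listed peak with the highest pileup. Ranks give ties the best rank. The local background given here is pileup divided by fold enrichment, which only approximates the value that MACS used. Symbols were found for 823 of the 842 loci in the RefSeq table (TAIR10.1), whose coordinates served only to put genes in order. No protein or promoter sequences were used here, so families were set by symbols and synonyms (NAC or ANAC with a number; RVE, CCA1, LHY, ASG4, EPR1; ERF, DREB, CBF, RAP2, ESE, TINY), leaving out 2 loci of unrelated proteins that share such a symbol, and motifs were not searched.

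Members and lists were chosen with earlier results of these data known. Named genes are the members, genes sharing their peaks, 2 flanking genes on either side, the 3 highest targets of each family, and the 2 nearest genes in pileup. *NAC047*, *NAC076*, *NTL8*, *NAC3*, *ERF-1*, *ERF4*, *AT1G01490* and *BPS1* were named after their values were seen. So were *AT5G22280*, *AT5G22300* and *AT3G15200*, which share peaks with *NAC089* or *ERF4*. The overlap step was tested on simulated data with 1000 genes, of which all 500 with overlapping peaks were recovered, with 0 false ones. The simulated peaks either nearly coincided or lay far apart, so borderline overlaps and genes with several lines were not covered. Alternatives were other overlaps, limits, rank measures and each replicate left out. Python 3.11.15, pandas 2.3.3, NumPy 2.4.6 and matplotlib 3.10.9 were used.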

Additional observations from a re-analysis of the deposited data

How the results depend on the processing

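Among 58 values under other settings, 49 differed from the reported one by under 1 SD or, for counts, under 1.5 times, and 9 by more. For means with a replicate left out, a difference under 1 SD was fixed in advance, as the SD came from the same 3 values. These values therefore do not show stability. The members with overlapping peaks fell from 4 to 2 with summits within 200 bp and to 2 under a fold enrichment limit of 3, where *ERF10* and *NAC004* were lost. With any replicate left out they had to stay at 4, because peaks that overlap in all replicates also overlap in any pair. The target genes fell from 788 to 498 with a reciprocal overlap of 50% and to 397 under that limit on fold enrichment. Without a replicate they numbered from 807 to 818, a count that cannot fall when fewer overlaps are required. The mean percentile of *ASG4* in a list went from 94.4 to 93.4 when ranked by fold enrichment. Among peaks with a q-value under 1e-05 alone, which leaves out mostly low peaks, it became 92.5 for *ATAF1* (98.0 before), 79.0 for *ASG4*, 50.3 for *ERF10* (86.8 before) and 28.8 for *NAC004* (77.1 before), whose peak in replicate 1 is then lost. Without 1 replicate, the mean pileup ran from 179 to 200 at *ATAF1*, 97 to 114 at *ASG4*, 56.5 to 59.5 at *ERF10* and 42 to 47 at *NAC004*, and the mean percentile from 97.9 to 98.2, 93.9 to 94.9, 86.5 to 87.2 and 74.4 to 80.2. The families by protein similarity were not run, as no protein table was used here. No paired analysis was possible because all ChIP samples belong to a single condition. Unknown read totals limit comparisons between lists, and 3 replicates limit every SD.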
